A study of Homo sapiens with 16 samples.

Results

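Expression was examined for 8 genes of the p53, MDM and GADD45 group, all of them found by symbol among the 34228 genes of the count table. They are the p53 inhibitors MDM2 and MDM4, the p53 effectors TP53I3, SESN1 and BTG2, and the GADD45 family genes GADD45A, GADD45B and GADD45G. The samples were 8 poly(A) RNA-Seq libraries from a pair of melanoma lines, 451Lu-R and 1205Lu-R, 2 per group, treated for 24 hours with 2.5 μM corin or with its vehicle DMSO. Corin is a dual-warhead compound that blocks the histone deacetylase and LSD1 demethylase activities of the CoREST repressor complex. Both lines are resistant to BRAF inhibitors (BRAFi-R), were derived under rising doses of the BRAF inhibitor PLX4032 over months and were kept in 5 μM PLX4032. The paper lists DMSO, corin, PLX4032 and PLX4032 plus corin as separate treatments. One of its figure legends describes the reference of each line as free of PLX4032 and corin. When the PLX4032 of the culture medium was taken off is not stated. A further 8 libraries of the series, with PLX4032 alone or with PLX4032 plus corin, were not analysed here. Each group comes from a single resistant line, and it is not stated whether the 2 libraries of a group were separate cultures, so p-values measure only the spread between these samples, which may be technical.

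p53 is a transcription factor that is stabilised by DNA damage and other stresses and switches on genes of cell-cycle arrest, repair and apoptosis. MDM2 is the ubiquitin ligase that marks p53 for destruction, and as a p53 target itself it closes a feedback loop. MDM4 is its relative that binds and masks the p53 activation domain. The GADD45 proteins are small stress-inducible proteins that bind PCNA, the CDK1-cyclin B1 complex and the kinase MAP3K4, and each of the 3 genes is induced by its own set of stresses, some of them independent of p53. In melanoma p53 is often kept in check by its inhibitors rather than lost by mutation.

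The libraries held between 9516687 and 11797788 estimated read counts, and levels are given as CPM, counts scaled to the library total and by TMM factors, the trimmed-mean scaling of edgeR. "Rose" and "fell" are used for an adjusted p under 0.05 in edgeR's quasi-likelihood test across all genes. Mitochondrially encoded genes took 2.98% and 3.07% of the counts in 451Lu-R cells under DMSO and 5.90% and 5.86% under corin, and 0.377% in both DMSO libraries and 0.705% and 0.707% in the corin libraries of 1205Lu-R. This share was higher under corin in both lines, and its part in the results was not tested. Of 9 melanocyte markers, all 9 were above 3 counts per group in 451Lu-R cells. Their sum there was 13080 to 13090 CPM under DMSO and 12200 to 12210 CPM under corin, most of it PMEL (8034 and 7490 CPM). Within this sum MITF averaged 755 CPM under DMSO and 297 CPM under corin, and SOX10 722 and 242 CPM. DCT went the other way, from 1588 to 2773 CPM, and S100A1 from 46.7 to 49.8 CPM. In 1205Lu-R cells the sum was 8.88 to 9.21 CPM under DMSO and 23.2 to 25.9 CPM under corin. SOX10 and TYR had 0 counts in all 4 libraries of 1205Lu-R, and 4 of the 9 markers were above 3 counts per group there under DMSO and 7 of 9 under corin. Summed fibroblast markers (7 genes) lay at 48.2 to 51.8 CPM under DMSO and 161 to 164 CPM under corin in 451Lu-R cells, and at 348 to 351 CPM and 182 to 185 CPM in 1205Lu-R cells, with COL3A1 at the floor of 3 counts per group throughout. In 1205Lu-R cells PDGFRA averaged 203 CPM under DMSO and 91.5 CPM under corin, and PDGFRB 145 and 82.9 CPM. COL1A1 went the other way there, from 1.19 to 8.64 CPM. Summed endothelial markers (4 genes) lay at 8.67 to 10.3 CPM under DMSO and 73.0 to 75.7 CPM under corin in 451Lu-R cells, and at 11.6 to 12.1 CPM and 45.5 to 50.7 CPM in 1205Lu-R cells, with PECAM1 at the floor in all 451Lu-R groups and CDH5 in all 1205Lu-R groups. In 1205Lu-R cells the mean of KDR went from 0.674 to 22.9 CPM under corin, and that of PECAM1 from 9.77 to 7.15 CPM. Keratinocyte markers summed to between 18.2 and 33.8 CPM in every library. Immune markers summed to 62.4 to 94.3 CPM in 451Lu-R cells and 10.2 to 14.3 CPM in 1205Lu-R cells, with CD79A at the floor in all 4 groups. KRT10 averaged 19.8 and 14.4 CPM under DMSO and corin in 451Lu-R cells, and 33.7 and 30.25 CPM in 1205Lu-R cells. CD68 averaged 62.9 and 91.9 CPM under DMSO and corin in 451Lu-R cells, and 10.4 and 13.1 CPM in 1205Lu-R cells. KRT10 and CD68 thus held most of these sums, and PTPRC had at most 4 counts over a group. The part of these markers in the results was not tested. In bulk RNA, fewer cells expressing a gene and less of its RNA per cell cannot be told apart.

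The promoters of the genes that the results turn on are shown first. RefSeq promoter windows (GRCh38.p14, 250 bases before to 50 bases after the annotated start) were matched for 7 of the 8 genes, 12 windows in all, and none for GADD45A. Capitals mark matches on either strand to the TATA box (TATAAA), the CCAAT box, the GC box (GGGCGG), the E-box (CACGTG), the cAMP response element (TGACGTCA), the AP-1 motif (TGANTCA, with N for any base) or the p53 consensus, taken as 2 adjoining half-sites of 10 bases with at most 1 mismatch in each, and no motif contains another. GADD45B (chr19:2475877-2476176, + strand) and GADD45G (chr9:89604762-89605061, + strand) are shown because both had more reads under corin in both lines, BTG2 (chr1:203305269-203305568, + strand) because it rose in both lines, and the second promoter of MDM2 (chr12:68808767-68809066, + strand), the one known to respond to p53, because the responses of MDM2 differed between the lines.
GADD45B: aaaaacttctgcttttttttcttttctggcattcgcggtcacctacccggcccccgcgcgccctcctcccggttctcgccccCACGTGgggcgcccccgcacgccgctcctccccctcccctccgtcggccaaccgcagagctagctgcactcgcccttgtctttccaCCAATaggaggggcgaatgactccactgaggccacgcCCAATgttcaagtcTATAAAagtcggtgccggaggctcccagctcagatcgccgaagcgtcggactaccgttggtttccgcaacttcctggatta
GADD45G: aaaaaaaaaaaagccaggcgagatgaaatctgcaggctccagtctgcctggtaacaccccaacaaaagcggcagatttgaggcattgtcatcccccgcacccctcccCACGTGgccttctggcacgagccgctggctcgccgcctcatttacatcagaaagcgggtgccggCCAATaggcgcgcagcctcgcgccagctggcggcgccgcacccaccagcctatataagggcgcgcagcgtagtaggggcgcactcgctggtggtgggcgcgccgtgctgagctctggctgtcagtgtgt
BTG2: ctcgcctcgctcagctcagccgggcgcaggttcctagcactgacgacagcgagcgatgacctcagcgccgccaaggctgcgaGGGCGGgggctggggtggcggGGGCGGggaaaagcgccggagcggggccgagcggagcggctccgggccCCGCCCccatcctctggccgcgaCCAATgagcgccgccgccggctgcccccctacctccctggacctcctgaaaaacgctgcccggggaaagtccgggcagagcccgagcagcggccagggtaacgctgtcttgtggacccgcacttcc
MDM2: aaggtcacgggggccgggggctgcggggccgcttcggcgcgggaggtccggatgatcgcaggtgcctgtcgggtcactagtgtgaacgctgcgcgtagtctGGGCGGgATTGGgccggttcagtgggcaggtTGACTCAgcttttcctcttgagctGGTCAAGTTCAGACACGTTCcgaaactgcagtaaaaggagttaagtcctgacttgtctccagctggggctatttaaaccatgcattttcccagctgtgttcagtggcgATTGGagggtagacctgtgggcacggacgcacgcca
Positions count from the annotated start and give the first base of the match. The GADD45B window held TATAAA at -31, CCAAT at -82 and -45, and CACGTG at -168. The GADD45G window held CCAAT at -79 and CACGTG at -143, so the 2 windows shared CCAAT and CACGTG. Of 35116 RefSeq windows, 34.6% held CCAAT, 7.26% held CACGTG and 11.5% held TATAAA. The BTG2 window held CCAAT at -76 and GGGCGG at -168, -147 and -99, and GGGCGG was present in 45.0% of all windows. In the MDM2 window the p53 consensus began at -94, TGANTCA at -118, GGGCGG at -149 and CCAAT at -142 and 15. The p53 consensus was found in 0.387% of all windows and TGANTCA in 7.71%. Among the 7 genes with a window, MDM2 was the only one with a p53 match by this rule, and none held TGACGTCA, which 1.85% of all windows held. A match is a description of letters and not a bound site, and the missing letters say nothing about the factor outside these windows.

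GADD45A and GADD45B had the largest corin responses of the 7 genes tested, in both lines. GADD45A (ENSG00000116717, chr1:67685201-67688334 in GRCh38), whose product restrains the G2/M transition and takes part in repair, stood at 14.9 and 15.4 CPM in the 451Lu-R libraries under DMSO and at 122.8 and 110.5 CPM under corin. In 1205Lu-R cells its level was 38.1 and 41.7 CPM under DMSO and 113.6 and 113.2 CPM under corin. The corin libraries lay above the DMSO libraries in both lines without overlap, and the corin levels of the lines overlapped although the DMSO levels did not. GADD45A rose 7.60-fold in 451Lu-R cells (log2 fold change 2.93 ± 0.08 SE, adjusted p = 8.61e-18) and 2.87-fold in 1205Lu-R cells (1.52 ± 0.05 SE, adjusted p = 7.03e-17). The response was smaller in 1205Lu-R cells by a log2 difference of -1.44 ± 0.10 (interaction term, adjusted p = 1.63e-10). With DMSO, 1205Lu-R had 2.60-fold more GADD45A RNA than 451Lu-R (log2 difference 1.38, adjusted p = 6.22e-13). With corin the log2 difference was -0.05 (95% confidence interval -0.15 to 0.05, adjusted p = 0.348), and it turned to 0.04 with scaling by library size only.

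GADD45B (ENSG00000099860, chr19:2476122-2478259), an immediate-early gene of TGF-β and NF-κB signaling whose product acts on the p38 and JNK pathways, had 23 and 15 counts in 451Lu-R cells under DMSO and 217 and 160 under corin. In 1205Lu-R cells it had 154 and 148 counts under DMSO and 1245 and 1426 under corin. On the CPM scale these are 2.02 and 1.47 against 19.1 and 16.6 in 451Lu-R cells, and 14.5 and 14.4 against 127.7 and 125.3 in 1205Lu-R cells. None of the 4 groups overlapped another in CPM, and the corin libraries of 451Lu-R stood close above the DMSO libraries of 1205Lu-R. The rise was 9.95-fold in 451Lu-R cells (log2 fold change 3.32 ± 0.19 SE, adjusted p = 2.89e-12) and 8.83-fold in 1205Lu-R cells (3.14 ± 0.06 SE, adjusted p = 3.9e-21). The difference between these responses did not pass the test (-0.21, 95% confidence interval -0.67 to 0.25, adjusted p = 0.508). GADD45B was higher in 1205Lu-R cells than in 451Lu-R cells in both conditions, 8.07-fold under DMSO (adjusted p = 7.42e-13) and 7.04-fold under corin (adjusted p = 1.59e-17).

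GADD45G (ENSG00000130222, chr9:89605012-89606555), a family member with roles in gonad development and cytokine responses, was read in no DMSO library of either line. It had 5 and 4 counts in the corin libraries of 451Lu-R and 5 and 12 in those of 1205Lu-R. Against the floor of 3 counts over a group, the corin level was at least 3.08-fold higher in 451Lu-R cells and at least 5.60-fold higher in 1205Lu-R cells, which covers counting error only. It fell below the filter on low counts and has no test beside the other 7 genes. Without that filter edgeR gave adjusted p-values of 0.0195 in 451Lu-R cells and 0.000401 in 1205Lu-R cells, and its level under corin, 0.414 to 1.05 CPM, stayed far under that of the other GADD45 genes.

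Levels of different genes were compared per kilobase of exonic length (GENCODE 44), taken over the exons of all annotated transcripts of a gene. This length can exceed that of the transcripts expressed, so comparisons between genes are rough. On this scale the 3 GADD45 genes together went from 8.69 ± 0.02 CPM per kilobase (SD, n = 2) under DMSO to 69.3 ± 5.34 under corin in 451Lu-R cells. In 1205Lu-R cells the sum went from 27.5 ± 1.28 to 118.7 ± 0.64 CPM per kilobase. GADD45A made up 90.6% ± 2.08 (SD, n = 2) of the family level in 451Lu-R cells under DMSO and 87.5% ± 0.27 under corin, with 9.39% and 12% for GADD45B. In 1205Lu-R cells the GADD45A share was 75.4% ± 1.18 under DMSO and 49.7% ± 0.15 under corin, and that of GADD45B went from 24.6% ± 1.18 to 49.9% ± 0.40. In 1205Lu-R cells the 2 genes were therefore present at about the same level per length under corin. GADD45G stayed at 0.467% and 0.500% of the family in the corin groups.

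**Figure D1:**
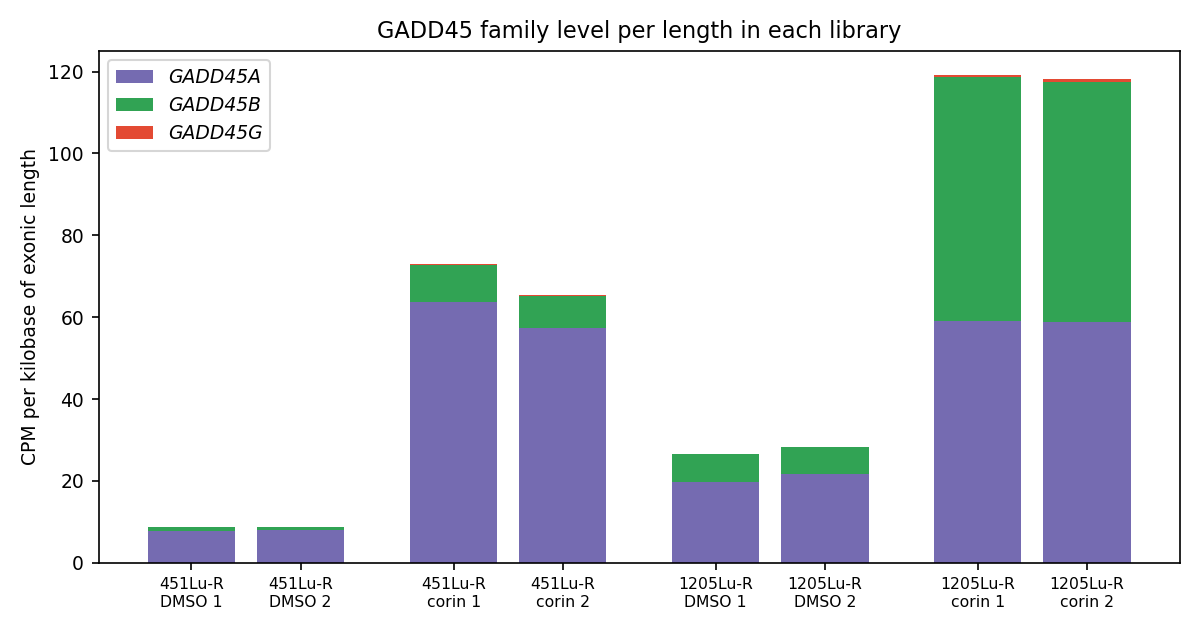
Stacked bars give the level of GADD45A, GADD45B and GADD45G in CPM per kilobase of exonic length (y axis) in each of the 8 libraries (x axis), with no error bars since each bar is 1 library. The family sum was 8.69 and 27.5 in the DMSO groups and 69.3 and 118.7 in the corin groups, and the GADD45B part was as tall as the GADD45A part only in 1205Lu-R cells under corin.

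The p53 inhibitors did not move together. MDM2 (ENSG00000135679, chr12:68808177-68845544) had 64.1 and 62.4 CPM in 451Lu-R cells under DMSO and 88.9 and 84.6 CPM under corin. In 1205Lu-R cells it had 77.5 and 74.8 CPM under DMSO and 47.4 and 48.4 CPM under corin. The groups did not overlap in either line, and the corin libraries were the higher ones in 451Lu-R cells and the lower ones in 1205Lu-R cells. MDM2 rose 1.35-fold in 451Lu-R cells (log2 fold change 0.43 ± 0.05 SE, adjusted p = 2.3e-07) and was 1.57-fold lower under corin in 1205Lu-R cells (-0.65 ± 0.05 SE, adjusted p = 3.36e-10). The 2 responses differed by -1.12 ± 0.07 on the log2 scale (adjusted p = 2.51e-11). Between the lines, MDM2 was 1.19-fold higher in 1205Lu-R cells under DMSO (adjusted p = 0.000145) and 1.82-fold lower under corin (adjusted p = 7.16e-11). Exons of MDM2 overlap exons of the carboxypeptidase M gene and of a long noncoding RNA on the other strand and a processed pseudogene on its own strand, and the strandedness of the libraries is not given in the sources used here, so reads in those stretches are of uncertain origin.

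MDM4 (ENSG00000198625, chr1:204516379-204558120) stood at 11.6 and 12.2 CPM in 451Lu-R cells under DMSO and at 6.07 and 6.73 CPM under corin. In 1205Lu-R cells the values were 7.61 and 6.73 CPM under DMSO and 5.43 and 6.68 CPM under corin. The 451Lu-R DMSO libraries were the high ones, and the other 6 libraries lay between 5.43 and 7.61 CPM. In 451Lu-R cells MDM4 was 1.89-fold lower under corin (log2 fold change -0.92 ± 0.15 SE, adjusted p = 1.27e-05). In 1205Lu-R cells the log2 fold change was -0.22 (95% confidence interval -0.59 to 0.15, adjusted p = 0.259). The difference between the responses was 0.66 ± 0.23 (adjusted p = 0.0228), and this call was lost with DESeq2 (adjusted p = 0.143) and without any 1 of 4 libraries (451Lu-R DMSO replicate 2, 451Lu-R corin replicate 1, 1205Lu-R DMSO replicate 2 or 1205Lu-R corin replicate 2, adjusted p from 0.0549 to 0.132). With DMSO, MDM4 was 1.67-fold lower in 1205Lu-R cells than in 451Lu-R cells (adjusted p = 0.000104), and under corin the log2 difference was -0.07 (95% confidence interval -0.47 to 0.33, adjusted p = 0.752). Per kilobase, the ratio of MDM2 to MDM4 RNA was 7.35 and 6.79 in 451Lu-R cells under DMSO and 19.4 and 16.7 under corin. In 1205Lu-R cells it was 13.5 and 14.7 under DMSO and 11.6 and 9.61 under corin, so the ratio was higher under corin in 451Lu-R cells and lower in 1205Lu-R cells, with no overlap within a line.

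**Figure D2:**
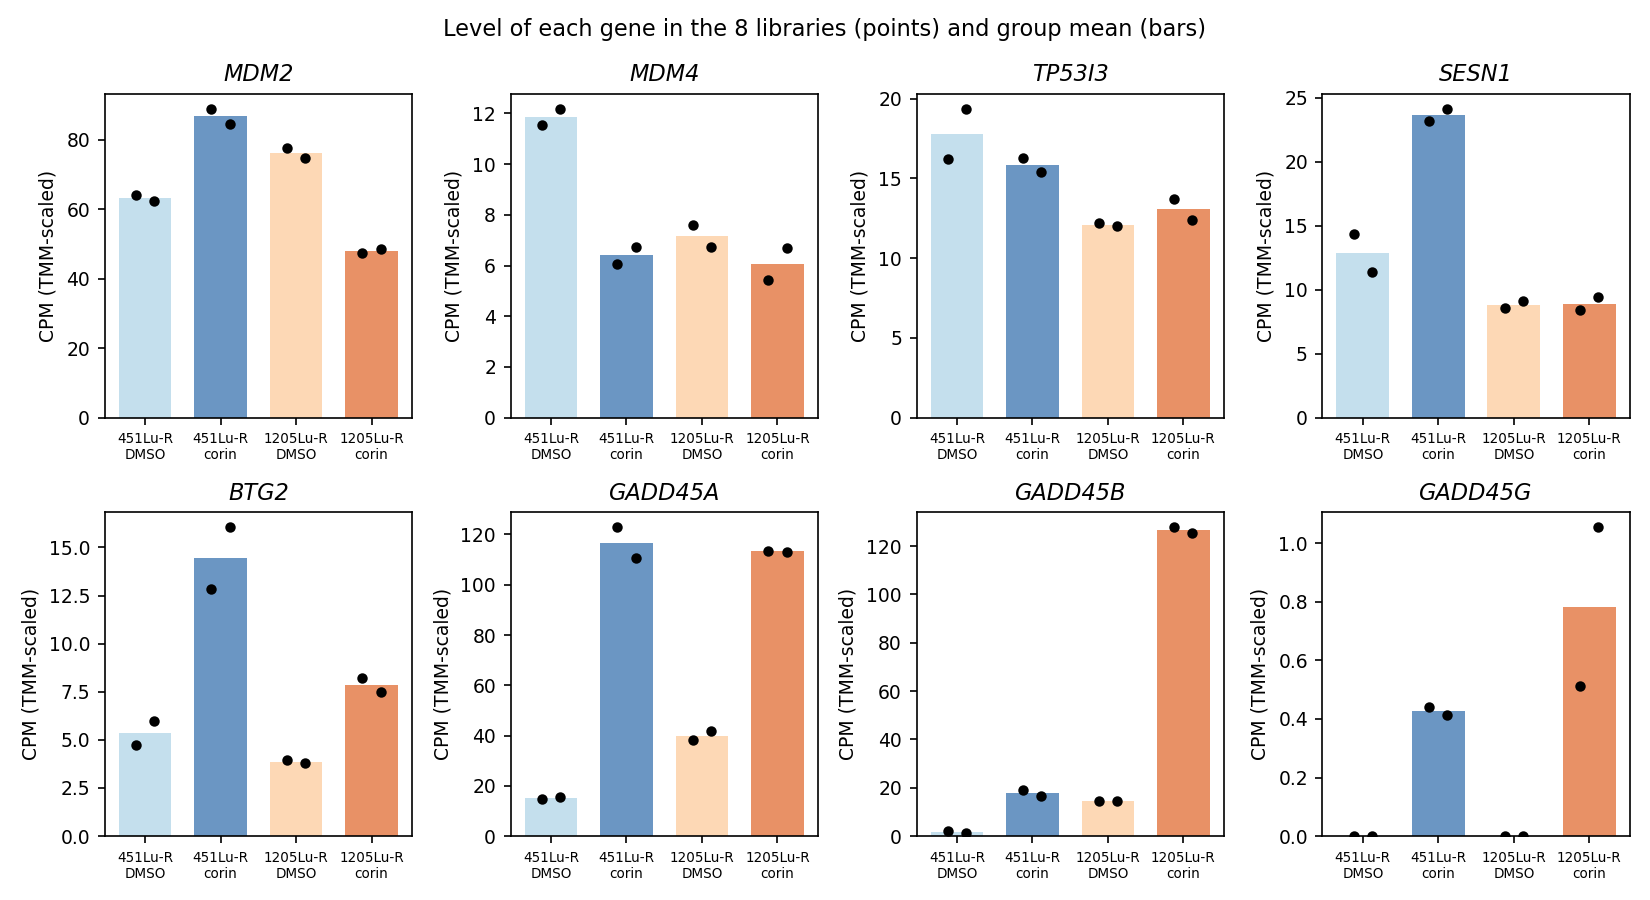
Each panel shows 1 gene, with the level in CPM on the y axis, points for the 2 libraries of a group and bars for the group mean in each line under DMSO or corin. MDM2 was high under corin in 451Lu-R cells and low under corin in 1205Lu-R cells, while the GADD45A and GADD45B libraries under corin lay above those under DMSO in both lines and GADD45G was at 0 under DMSO.

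The 3 effector genes also differed from each other. BTG2 (ENSG00000159388, chr1:203305491-203309602), an antiproliferative cofactor of mRNA deadenylation, had 4.73 and 5.99 CPM in 451Lu-R cells under DMSO and 12.8 and 16.0 CPM under corin. In 1205Lu-R cells it had 3.95 and 3.81 CPM under DMSO and 8.20 and 7.47 CPM under corin. Corin libraries lay above DMSO libraries in both lines, and BTG2 rose 2.65-fold in 451Lu-R cells (log2 fold change 1.40 ± 0.17 SE, adjusted p = 1.93e-07) and 2.03-fold in 1205Lu-R cells (1.02 ± 0.19 SE, adjusted p = 3.99e-05). The difference between the responses was -0.42 (95% confidence interval -0.97 to 0.14, adjusted p = 0.21). BTG2 was 1.84-fold lower in 1205Lu-R cells than in 451Lu-R cells under corin (adjusted p = 3.7e-05). With DMSO it was 1.39-fold lower (adjusted p = 0.0447), a call lost under 5 alternative settings (adjusted p from 0.0531 to 0.273) and without any 1 of 3 libraries (451Lu-R DMSO replicate 2 and both 1205Lu-R DMSO replicates, adjusted p from 0.106 to 0.314).

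SESN1 (ENSG00000080546, chr6:108984309-109094846) encodes a sestrin, a stress-inducible protein that restrains mTORC1 and limits oxidative damage. It had 14.4 and 11.4 CPM in 451Lu-R cells under DMSO and 23.1 and 24.1 CPM under corin, against 8.55 and 9.07 CPM under DMSO and 8.41 and 9.40 CPM under corin in 1205Lu-R cells. The 451Lu-R corin libraries were above all others, and in 1205Lu-R cells the corin and DMSO libraries overlapped. SESN1 rose 1.79-fold in 451Lu-R cells (log2 fold change 0.84 ± 0.11 SE, adjusted p = 9.09e-07), and its log2 fold change in 1205Lu-R cells was 0.04 (95% confidence interval -0.27 to 0.34, adjusted p = 0.826). The responses differed by -0.84 ± 0.19 (adjusted p = 0.000753). SESN1 was 1.49-fold lower in 1205Lu-R cells under DMSO (adjusted p = 0.00118) and 2.64-fold lower under corin (adjusted p = 1.95e-09). A long noncoding RNA on the other strand overlaps its exons.

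TP53I3 (ENSG00000115129, chr2:24077433-24085861) encodes a quinone oxidoreductase that p53 induces in apoptosis, and exons of FAM228B overlap it on the other strand. Its level was 16.2 and 19.4 CPM under DMSO and 16.3 and 15.4 CPM under corin in 451Lu-R cells, and 12.2 and 12 CPM under DMSO and 13.7 and 12.4 CPM under corin in 1205Lu-R cells. Corin and DMSO libraries overlapped in 451Lu-R cells, and in 1205Lu-R cells the corin libraries lay just above the DMSO libraries. Neither response passed the test, with log2 fold changes of -0.18 (95% confidence interval -0.42 to 0.06, adjusted p = 0.149) and 0.12 (-0.14 to 0.38, adjusted p = 0.387). The difference between the responses was 0.26 (95% confidence interval -0.09 to 0.61, adjusted p = 0.208), and 0.47 with scaling by library size only (adjusted p = 0.0218). In 451Lu-R the gene fell with scaling by library size only (-0.28, adjusted p = 0.0303) and without DMSO replicate 1 (-0.32, adjusted p = 0.0197). TP53I3 was 1.48-fold lower in 1205Lu-R cells than in 451Lu-R cells under DMSO (adjusted p = 0.000197) and 1.22-fold lower under corin (adjusted p = 0.0309). The second of these calls was lost with DESeq2 (adjusted p = 0.194), with library size only (0.126) and without 451Lu-R corin replicate 1 (0.128) or 1205Lu-R corin replicate 2 (0.206).

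**Figure D3:**
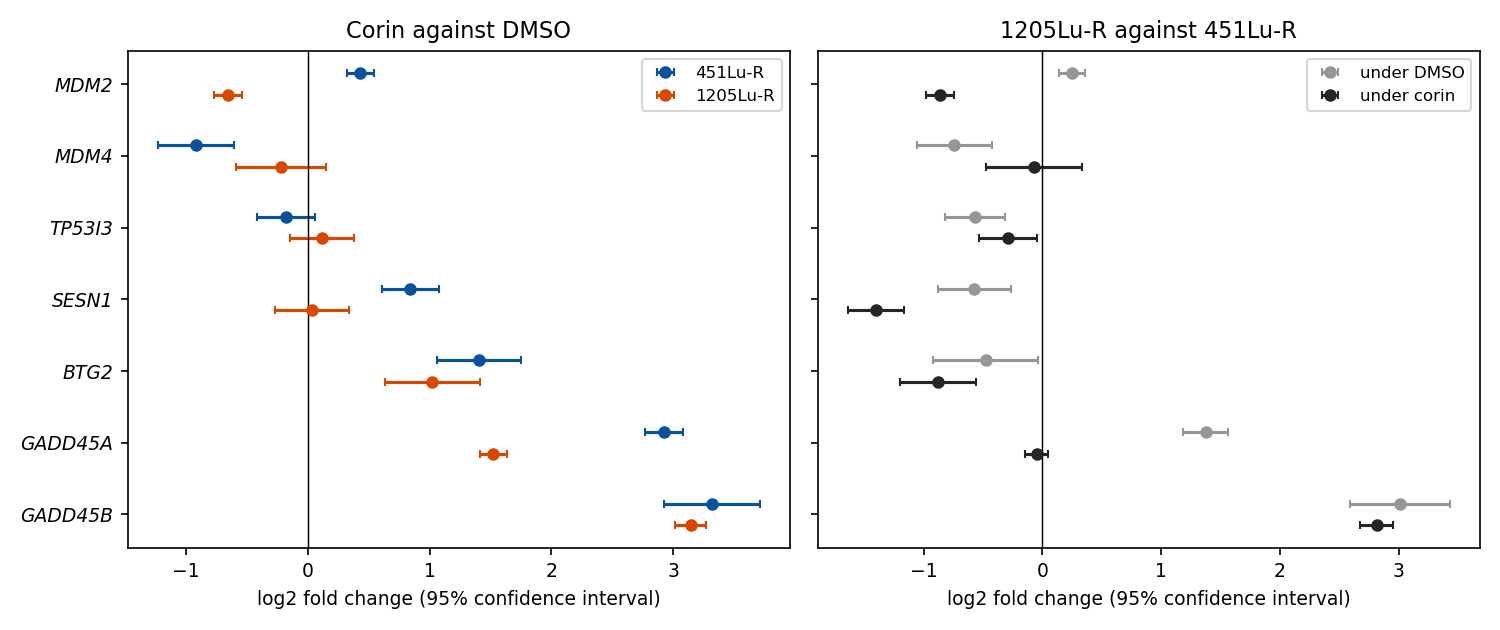
Points give log2 fold changes with 95% confidence intervals (x axis) of the 7 tested genes (y axis), for corin against DMSO in each line (left) and for 1205Lu-R against 451Lu-R under DMSO or corin (right). GADD45B lay near 3 in both lines on the left, the MDM2 points lay on opposite sides of 0, and on the right GADD45A lay at 1.38 under DMSO and at -0.05 under corin.

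Of the 7 genes that passed the filter, 5 rose and 1 fell under corin in 451Lu-R cells, where 41.3% of 14530 genes rose and 38.6% fell. In 1205Lu-R cells 3 rose and 1 fell, where 40.4% of 14563 genes rose and 37.8% fell. A call alone was therefore common. GADD45A and GADD45B in 451Lu-R cells and GADD45B in 1205Lu-R cells rose at least 4-fold at an FDR under 0.001, which 12.4% of genes did in 451Lu-R cells and 11.3% in 1205Lu-R cells. The response differed between the lines for 4 of the 7 (MDM2, MDM4, SESN1 and GADD45A), against 49.7% of 16062 genes. Between the lines under DMSO, 3 of the 7 were higher in 1205Lu-R cells and 4 lower, where 41.0% of 14104 genes were higher and 41.5% lower. With corin 1 was higher and 4 lower, where 39.0% of 15363 genes were higher and 40.2% lower. These comparisons share libraries with the corin comparisons and are not independent of them.

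Ranked per kilobase, GADD45A, TP53I3 and MDM2 led in 451Lu-R cells under DMSO at 7.88, 7.69 and 7.62 CPM per kilobase, and the neighbours overlapped between libraries. BTG2 and SESN1 followed at 1.95 and 1.77 and also overlapped, then MDM4 at 1.08 and GADD45B at 0.816. With corin in the same line the order was GADD45A at 60.6, MDM2 at 10.4, GADD45B at 8.34, TP53I3 at 6.86, BTG2 at 5.24, SESN1 at 3.25, MDM4 at 0.581 and GADD45G at 0.323, each above the next without overlap. In 1205Lu-R cells under DMSO it ran from GADD45A at 20.7 over MDM2 at 9.17, GADD45B at 6.76, TP53I3 at 5.24, BTG2 at 1.41 and SESN1 at 1.21 to MDM4 at 0.651, again without overlap. With corin in 1205Lu-R cells, GADD45B at 59.2 and GADD45A at 58.9 overlapped, as did MDM2 at 5.77 and TP53I3 at 5.65, and BTG2 at 2.84 and SESN1 at 1.22 stood above GADD45G at 0.592 and MDM4 at 0.550. Among the genes with at least 1 CPM in a group, GADD45B went from percentile 14.2 to 68.0 in 451Lu-R cells and from 58.4 to 95.7 in 1205Lu-R cells, and MDM4 stayed between percentiles 10.7 and 18.0.

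Among the relatives of p53, TP73 fell by a log2 value of 0.65 in 451Lu-R cells (adjusted p = 0.00527, and 0.11 with DESeq2) and had a log2 fold change of -0.20 in 1205Lu-R cells (adjusted p = 0.538). TP63, the epithelial member, went the other way from 0 counts under DMSO to 38 and 26 under corin in 451Lu-R cells, at least 21.9-fold higher, and to 7 and 4 in 1205Lu-R cells, at least 3.63-fold higher.

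Among 23 regulators of p53, 9 rose, 13 fell and 1 did not pass in 451Lu-R cells, with a median log2 fold change of -0.46 against 0.03 over all genes tested. In 1205Lu-R cells 21 were tested, of which 8 rose and 11 fell, with a median of -0.57 against 0.03. Over all genes tested, 41.3% rose and 38.6% fell in 451Lu-R cells, and 40.4% rose and 37.8% fell in 1205Lu-R cells. HIPK2, a kinase that phosphorylates p53, went from 570.3 and 585.0 CPM to 79.6 and 80.7 CPM in 451Lu-R cells and from 780.2 and 796.9 CPM to 158.5 and 161.4 CPM in 1205Lu-R cells. It fell by 2.87 and 2.29 on the log2 scale (adjusted p = 4.09e-23 and 1.24e-23). USP2, a deubiquitinase that stabilises MDM2, rose in both lines, by 2.60 ± 0.31 on the log2 scale from 8 and 11 counts to 60 and 55 in 451Lu-R cells and by 4.59 ± 0.21 from 13 and 6 counts to 210 and 254 in 1205Lu-R cells. The 6 upstream kinases and adaptors had 5 that fell in 451Lu-R cells, and 2 that rose and 3 that fell in 1205Lu-R cells. Of 4 acetylases and deacetylases, 1 rose and 3 fell in each line. Of 4 inhibitors of MDM2, 4 rose in 451Lu-R cells (median 0.17), and all 3 that were tested rose in 1205Lu-R cells (median 0.21). Of the inhibitors of MDM2, CDKN2A, the gene of ARF and p16, was named after its values were seen. CDKN2A rose by 0.09 ± 0.04 in 451Lu-R cells (adjusted p = 0.0413) and was not tested in 1205Lu-R cells. It had 1554 and 1322 counts under DMSO and 1633 and 1387 under corin in 451Lu-R cells and 0 counts in all 4 libraries of 1205Lu-R.

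The p53 target genes outside the group were split. Of 40, 32 were tested in 451Lu-R cells, where 17 rose, 8 fell and 7 did not pass (median 0.39, all genes 0.03), and 38 in 1205Lu-R cells, where 19 rose, 11 fell and 8 did not pass (median 0.21, all genes 0.03). Cell-cycle genes (CDKN1A, CCNG1, PLK2, PLK3, SFN, SERTAD1 and BTG1, grouped by hand) had 4 that rose and 1 that fell of 6 in 451Lu-R cells. In 1205Lu-R cells 6 rose and 1 fell of 7. Apoptosis genes had 3 that rose and 4 that fell of 8 in 451Lu-R cells, and 4 that rose and 5 that fell of 11 in 1205Lu-R cells. The role medians were 0.95 and 1.43 for the cell-cycle genes and -0.32 and -0.19 for apoptosis. Of feedback and other targets, 8 of 9 rose and 1 fell in 451Lu-R, and 4 of 10 rose and 3 fell in 1205Lu-R. Of repair and nucleotide supply genes, 1 of 4 rose and 1 fell in 451Lu-R, and 2 of 4 rose and 1 fell in 1205Lu-R. Of metabolism and redox genes, 1 of 5 rose and 1 fell in 451Lu-R, and 3 of 6 rose and 1 fell in 1205Lu-R. Over all genes tested, 41.3% rose and 38.6% fell in 451Lu-R cells, and 40.4% rose and 37.8% fell in 1205Lu-R cells. CDKN1A, the gene of the cyclin-dependent kinase inhibitor p21, had 28 and 29 counts under DMSO and 3361 and 2831 under corin in 451Lu-R cells, and 1141 and 1113 against 4651 and 5546 in 1205Lu-R cells. On the log2 scale the rise was 6.77 ± 0.07 in 451Lu-R cells and 2.18 ± 0.03 in 1205Lu-R cells (adjusted p = 1.92e-23 and 1.1e-22), a difference of -4.63 ± 0.12 (adjusted p = 3e-18). Like GADD45A, CDKN1A was lower in 451Lu-R cells than in 1205Lu-R cells under DMSO, at 2.45 and 2.85 CPM against 107.2 and 108.6 CPM.

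Other p53 targets named by the size of their change were PMAIP1, TNFRSF10B, GLS2 and GDF15. PMAIP1, the gene of the proapoptotic BH3-only protein NOXA, went from 7.88 and 7.27 CPM to 63.4 and 71.9 CPM in 451Lu-R cells, a log2 fold change of 3.13 ± 0.10 (adjusted p = 3.27e-16). It also rose in 1205Lu-R cells, by 1.41 ± 0.05 (adjusted p = 4.22e-16). TNFRSF10B, a death receptor for TRAIL, rose by 2.04 ± 0.05 in 451Lu-R cells (adjusted p = 1.38e-18) and by 0.73 ± 0.03 in 1205Lu-R cells (adjusted p = 6.8e-16). GLS2, a mitochondrial glutaminase, rose from 2 and 3 counts to 59 and 85 in 1205Lu-R cells (4.78 ± 0.39, adjusted p = 2.68e-10). In 451Lu-R cells it had 0 counts under DMSO and 3 in each corin library and was not tested. GDF15, a secreted stress cytokine, rose from 19.0 and 19.8 CPM to 125.7 and 120.3 CPM in 1205Lu-R cells (2.68 ± 0.06, adjusted p = 3.7e-20). It rose by 1.70 ± 0.03 in 451Lu-R cells (adjusted p = 1.28e-19).

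Of 6 genes whose products are bound by GADD45 proteins, 1 rose and 4 fell in each line, with a median log2 fold change of -0.31 in 451Lu-R cells and -0.27 in 1205Lu-R cells, against 0.03 over all genes tested in both, of which 38.6% and 37.8% fell. CCNB1, the gene of cyclin B1, fell by 2.17 ± 0.04 in 451Lu-R cells, from 195.5 and 200.5 CPM to 44.7 and 44.9 CPM, and by 0.34 ± 0.03 in 1205Lu-R cells (adjusted p = 2.72e-19 and 1.47e-09). MAP3K4, the p38 and JNK pathway kinase that GADD45 proteins activate, rose in 451Lu-R cells (0.82 ± 0.10, adjusted p = 3.29e-07) and fell by 0.20 in 1205Lu-R cells (adjusted p = 0.0264). MAP2K7, a JNK kinase bound by the GADD45B protein, fell by 0.60 and 0.47 in the 2 lines (adjusted p = 1.05e-06 and 3.74e-05). CDK1 was the 1 partner that rose in 1205Lu-R cells (0.68 ± 0.04, adjusted p = 5.65e-13), and it fell by 0.37 in 451Lu-R cells (adjusted p = 1.76e-05), a difference of 1.01 ± 0.07 (adjusted p = 7.02e-11). PCNA fell in 1205Lu-R cells by 0.59 ± 0.04 (adjusted p = 2.02e-12).

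Most relatives of SESN1 and BTG2 that were tested rose. Of 7 sestrin and BTG/TOB genes, 6 were tested, and all 6 rose in 451Lu-R cells (median log2 fold change 0.89) and 5 of 6 in 1205Lu-R cells (median 0.69), where TOB2 did not pass (-0.05). Over all genes tested, 41.3% rose in 451Lu-R cells and 40.4% in 1205Lu-R cells, with a median of 0.03 in both. SESN2 and BTG1 are also counted among the p53 targets above. SESN2 rose by 2.03 ± 0.08 in 451Lu-R cells (adjusted p = 3.3e-15) and by 0.69 ± 0.09 in 1205Lu-R cells (adjusted p = 2.42e-07). SESN3, which responds to FOXO factors, went from 155.5 and 154.0 CPM to 300.7 and 312.3 CPM in 451Lu-R cells and from 5.73 and 4.29 CPM to 34.1 and 35.9 CPM in 1205Lu-R cells, where SESN1 did not pass the test. TOB1, an antiproliferative relative of BTG2, rose by 1.997 ± 0.066 and 0.69 ± 0.07 in the 2 lines (adjusted p = 4.34e-16 and 3.22e-09), and BTG1 by 0.46 ± 0.04 and 1.26 ± 0.04 (adjusted p = 9.4e-10 and 9.31e-17).

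**Figure D4:**
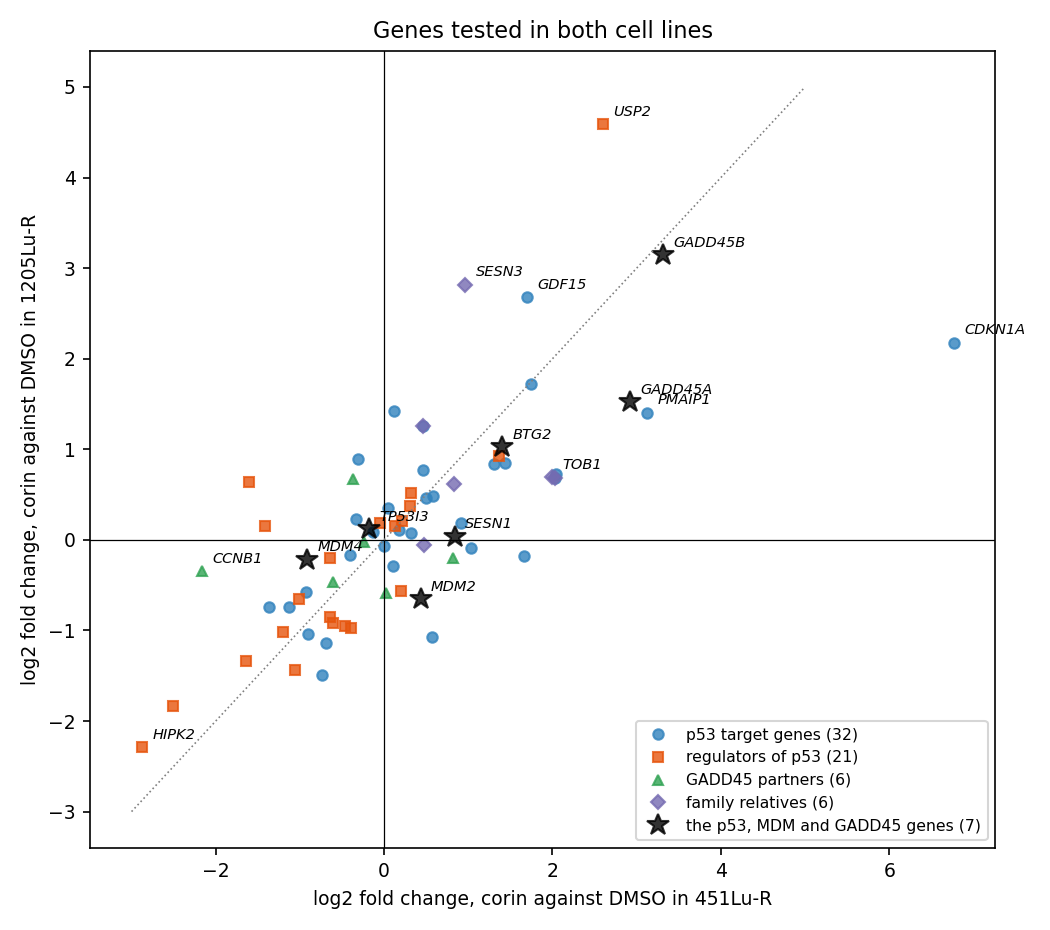
Each point is a gene tested in both lines, with the log2 fold change of corin against DMSO in 451Lu-R cells on the x axis and in 1205Lu-R cells on the y axis, coloured by list, and the dotted line marks equal change. The 7 stars are the p53, MDM and GADD45 genes, with GADD45B close to the dotted line and MDM2 below the horizontal axis at 0.43 and -0.65, while CDKN1A stands at 6.77 and 2.18.

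Genes with the most similar pattern over the 8 libraries were found by the Euclidean distance between centred log2 CPM values among 11375 genes averaging 5 CPM or more. The 3 nearest genes are given with their distance, except that for MDM2 only the second and the third are named, ATP6V0E1 (0.175) and NSMF (0.195). For MDM4 they were XPNPEP3 (0.149), ICE2 (0.223) and BOLA2-SMG1P6 (0.228). For TP53I3 they were DCAF16 (0.160), BLOC1S3 (0.226) and RNF130 (0.252), for SESN1 MBOAT2 (0.260), USP33 (0.321) and MYCBP2 (0.323), and for BTG2 FBXL2 (0.321), VPS8 (0.357) and SLC25A35 (0.357). GADD45A lay nearest to FZD4 (0.453), RIMS3 (0.471) and CEBPB (0.516), and GADD45B to ACOX2 (0.948), TMEM108 (0.951) and SLC45A1 (1.17). Of the 8 genes, none appeared among the 3 nearest of another, but GADD45G averaged under 5 CPM and so was not compared. The 8 points are 4 pairs of replicates of 2 lines, so likeness reflects 4 group means.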

How the data were processed

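Expression was measured by RNA-Seq in 8 libraries, 2 per group. For these the authors deposited expected counts per gene, made by Trimmomatic trimming and Salmon quantification against a GENCODE transcriptome, summed to genes and not normalized, with tool versions not given in the sources used here. The deposited tables of the PLX4032 libraries hold the authors' own log2 fold changes and adjusted p-values for PLX4032 plus corin against PLX4032, with no value per library, and were not used. Genes were named from GENCODE 44 (34052 of 34228 matched), which also gave coordinates and exonic lengths.

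Expected counts were rounded and tested with edgeR 4.0.16 in R 4.3.3 (filterByExpr, TMM, glmQLFit and glmQLFTest, two-sided, Benjamini-Hochberg adjustment over all genes tested) in 5 comparisons: corin against DMSO in each line, the interaction over all 8 libraries, and 1205Lu-R against 451Lu-R under DMSO and under corin. Other settings were DESeq2 1.42.0, limma 3.58.1 (voom), RLE factors, no scaling beyond library size, a filter at 1 CPM on average or none at all, a single fit to all 8 libraries, a replicate block, a 4-fold call at an FDR under 0.001, and each library left out in turn. The methods were tested on simulated data. Totals per library ran from 9516687 to 11797788, and chi-square per degree of freedom between replicates from 1.34 to 1.40, so small p-values rest on a low spread. Counts of 3 or fewer over a group were taken as the floor.

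The genes and gene lists were chosen with earlier results of these data known. Besides the 8 genes, CDKN1A and the p53 relatives, the text names for each list and line the 3 genes with the largest change among those past the test, averaging 1 CPM or more and without overlap between corin and DMSO libraries. Exceptions are said to be chosen after their values were seen. A few single-gene results that these rules would name are not reported here, while counts and medians over lists include all genes.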

Additional observations from a re-analysis of the deposited data

Results flagged for a closer look

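By the interaction term of edgeR's quasi-likelihood test over the 8 libraries, the corin response differed between the cell lines for 4 of the 7 genes tested. It also differed for CDKN1A, a p53 target gene. Of 16062 genes, 49.7% passed the same test, so such a call was common. The values are the log2 response in 1205Lu-R minus that in 451Lu-R. MDM2 differed by -1.12 (adjusted p = 2.51e-11), with a rise in 451Lu-R and a fall in 1205Lu-R. SESN1 differed by -0.84 (adjusted p = 0.000753) and GADD45A by -1.44 (adjusted p = 1.63e-10). MDM4 differed by 0.66 (adjusted p = 0.0228), the least stable of these calls. CDKN1A differed by -4.63 (adjusted p = 3e-18).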

How the results depend on the processing

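Of 441 tests of the 7 tested genes (GADD45G was below the filter) under other settings, 413 kept their direction and their side of the threshold, 17 kept the direction but lost the call, 4 gained one and 7 changed sign, all 7 of them among differences that did not pass the test. Scaling by library size only moved the median of all genes by 0.209 for the difference between responses, from -0.013 to 0.196, and by 0.106 or less in the other comparisons, while dropping the filter moved it from 0.032 to 0.197 in 451Lu-R cells and from 0.034 to 0.270 in 1205Lu-R cells. Sign changes under named settings were SESN1 in 1205Lu-R cells without a filter (-0.0099), and, with library size only, MDM4 (0.021) and GADD45A (0.042) between the lines under corin. Leaving out 1 library gave ranges of -0.055 to 0.11 for SESN1 in 1205Lu-R cells, -0.22 to 0.07 for MDM4 and -0.13 to 0.026 for GADD45A between the lines under corin, and -0.56 to 0.060 for TP73 in 1205Lu-R cells. GADD45A passed the test under corin without 451Lu-R corin replicate 2 (-0.13, adjusted p = 0.0205). The number of the 8 genes that fell in 451Lu-R cells was 2 with library size only, TP53I3 being added, and 1 to 2 when 1 library was left out. The number with a response higher in 1205Lu-R cells was 2 with library size only, 0 with DESeq2, and 0 to 1 when 1 library was left out. The cause was not tested. Values of list genes under other settings were taken only for the genes and lines that the naming rule chose, so others named in the text, such as MAP3K4 in 1205Lu-R cells, CDK1 in 451Lu-R cells, ZMAT3 and CHEK2, have none.

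With the stricter call of 4-fold at an FDR under 0.001, which by construction admits fewer genes, 2 of the 8 genes rose and 0 fell in 451Lu-R cells, 1 rose and 0 fell in 1205Lu-R cells, and 0 differed in response in either direction. Between the lines, 1 was higher in 1205Lu-R cells under DMSO and 1 under corin, GADD45B in both cases, and 0 were lower in either. Under that call 4 of 32 tested p53 targets rose and 0 fell in 451Lu-R cells, and 3 of 38 rose and 0 fell in 1205Lu-R cells. Over all genes tested, 12.4% rose by that call in 451Lu-R cells and 11.3% in 1205Lu-R cells. The shares of all genes that fell, or that differed between the lines, by that call were not computed. Those counts therefore stand without a background. Regulators of p53 had 2 that rose and 2 that fell in 451Lu-R cells and 1 each in 1205Lu-R cells, GADD45 partners 0 that rose in either line, 1 that fell in 451Lu-R cells and 0 in 1205Lu-R cells, and family relatives 1 that rose in each line. List medians kept their sign under all 12 alternatives in each line, and the widest range was -0.60 to -0.21 for the regulators of p53 in 1205Lu-R cells. Without division by length, the ratio of MDM2 to MDM4 was 5.33 and 13.6 with DMSO and corin in 451Lu-R cells and 10.7 and 7.98 in 1205Lu-R cells. The GADD45A share was then 86.5% in 451Lu-R cells with corin, 73.4% in 1205Lu-R cells with DMSO and 47.1% with corin, that of GADD45B 13.2%, 26.6% and 52.6%, and that of GADD45G in 451Lu-R cells with corin 0.317%.

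Replicate numbers are shared between groups but nothing says that they pair samples, and the deviations of same-numbered libraries had a Pearson's r of 0.027 (451Lu-R) and -0.059 (1205Lu-R) over 11496 genes. Under a replicate block, 5 of the 8 genes rose and 1 fell in 451Lu-R cells and 3 rose and 1 fell in 1205Lu-R cells, as without it, and among the calls of the 7 tested genes in the 5 comparisons the one lost was BTG2 between the lines under DMSO (-0.48, adjusted p = 0.0638). With 2 libraries per group, genes of few counts such as GADD45G carry the widest error.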

Other observations

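Among the p53 target genes and regulators, ZMAT3, PPM1D, CHEK2 and TP53INP1 are given here because of their values and were chosen after these were seen. ZMAT3, an RNA-binding p53 target, had the same directions as MDM2, with 65.9 and 60.9 CPM against 99.3 and 91.2 CPM under corin in 451Lu-R cells and 86.0 and 80.6 CPM against 38.8 and 39.4 CPM in 1205Lu-R cells. Its log2 fold changes were 0.56 ± 0.06 and -1.07 ± 0.06, and the difference between them was -1.68 ± 0.08. PPM1D, the gene of the phosphatase WIP1 that acts on p53, had log2 fold changes of 1.03 ± 0.08 in 451Lu-R cells and -0.09 ± 0.10 in 1205Lu-R cells. CHEK2, a checkpoint kinase of p53, went from 30.3 and 29.9 CPM to 11 and 8.90 CPM in 451Lu-R cells and from 6.39 and 7.03 CPM to 9.43 and 11.1 CPM in 1205Lu-R cells. TP53INP1, a p53 target of the autophagy and apoptosis programs, had 0 counts in all 4 libraries of 451Lu-R, and 50 and 44 counts under DMSO and 137 and 152 under corin in 1205Lu-R cells.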
